A study of Equisetum hyemale and Pteris vittata and Marchantia polymorpha with 22 samples.

Results

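The dark air baseline of 5 land plant species was described from the 11 libraries of plants kept under atmospheric oxygen, out of 22 libraries in all. The members were chosen by their air label alone, and no library of the hypoxia treatment was used. The air libraries come from the fern *Pteris vittata* (replicates 1 and 3), the horsetail *Equisetum hyemale* (replicates 1, 3 and 4), the lycophyte *Selaginella moellendorffii* (replicate 3 and a library without a usable number), the moss *Physcomitrium patens* (replicates 2 and 3) and the liverwort *Marchantia polymorpha* (accession Cambridge-2, replicates 1 and 2). All plants were 13 days old and were held in the dark for 8 h at 21% O2, and each replicate pooled 3 thalli, plantlets or shoots. The 2 bryophytes, the moss and the liverwort, were sampled as haploid gametophytes, and the 3 vascular species as diploid sporophytes. *E. hyemale* was grown in soil, at another temperature and with added far-red light, and its RNA was taken with another kit. The other 4 species were grown in vitro, *P. patens* on its own medium. The medium of *P. vittata*, *S. moellendorffii* and *M. polymorpha* held sucrose, and none is stated for *P. patens* or *E. hyemale*. *P. vittata* and *E. hyemale*, the 2 ferns in the wide sense, were quantified on transcriptomes assembled de novo from the reads, and the other 3 species on reference transcriptomes. Each species is 1 table, so a species and its table cannot be told apart. Vascular species and bryophytes differ also in life stage, and ferns and the other species also in reference type. *E. hyemale* and the other species differ also in soil, light, temperature and kit. Within these comparisons the factors cannot be told apart.

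Land plants share a core of nuclear genes for photosynthesis, protein synthesis and primary metabolism that descends from a common green algal ancestor. Transcripts for light harvesting, the Rubisco small subunit and Rubisco activase are abundant in green tissue, and in angiosperms darkness lowers many of them while it raises a set of genes linked to starvation and amino acid breakdown. The lineages also differ by gene duplications, so that a gene which is single in a moss may have several close relatives in a flowering plant.

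Features of each table were summed by their best-matching *Arabidopsis thaliana* gene, called a best hit here. A best hit is a label of similarity and not an orthologue. The tables hold 9071 best hits in *P. vittata*, 7056 in *E. hyemale*, 8512 in *S. moellendorffii*, 8604 in *P. patens* and 7925 in *M. polymorpha*. Of 14391 best hits found in any table, 3249 were found in all 5, and the comparisons rest on these shared hits. Levels are given in counts per M counts of a library (CPM), normalised by the authors within each species and not per transcript length. A percentile rank (0 to 100) then orders the 3249 hits within each library, and only ranks of the same hit are compared between species. Depth was estimated from the spacing of low CPM values, at between 16.2 and 24.3 M reads per library. At these depths between 44.8 and 78.9% of the low values lay within 0.1 of a whole read, so the estimate is rough. Between 86.9% and 92.0% of CPM lay in features with a best hit in the 3 species with a reference transcriptome, and between 66.8% and 67.2% in the 2 ferns.

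The deposited shoot label was checked against 12 genes for photosynthesis and 5 transporters of uptake organs. The shoot markers carried 1.72 and 1.6% of the annotated CPM in *P. vittata*, 1.6, 1.54 and 1.63% in *E. hyemale*, 2.26 and 2.41% in *S. moellendorffii*, 1.54 and 1.58% in *P. patens* and 2.13 and 1.98% in *M. polymorpha*. The uptake transporters were at 0 in all 3 *E. hyemale* libraries, where none of their hits is in the table. They reached at most 0.0567%, in *S. moellendorffii*, where the phosphate transporter hit PHT1;1 (AT5G43350) had 501 and 430 CPM. Markers of green tissue were thus prominent in every library. As such transcripts are abundant in any green tissue, the comparison cannot show whether rhizoids or roots were absent.

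Photosystem and antenna hits were the most frequent listed group among the hits that were abundant in all 5 species. 22 hits, 0.677% of the 3249, were at or above percentile 95 in every library. They included 7 of the 25 shared photosystem and antenna hits, 2 of 39 translation factors, 2 of 24 glycolysis hits and 1 of 62 ribosomal protein hits. The highest of them was THI1 (AT5G54770), which makes the thiazole part of thiamine and never ranked below percentile 99.1. It had 1035 and 953 CPM in *P. vittata*, 1758, 1777 and 1797 CPM in *E. hyemale*, 2282 and 2599 CPM in *S. moellendorffii*, 4189 and 4247 CPM in *P. patens*, and 1408 and 1267 CPM in *M. polymorpha*. Its CPM was thus highest in the moss and lowest in *P. vittata*, and replicates of a species were close to each other.

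The next positions were taken by the antenna proteins LHCB5 (AT4G10340) of photosystem II and LHCA2 (AT3G61470) of photosystem I. LHCB5 was the steadier in CPM, with 1290 and 1240 in *P. vittata*, 1250, 1150 and 1283 in *E. hyemale*, 1476 and 1600 in *S. moellendorffii*, 1620 and 1544 in *P. patens* and 1642 and 1419 in *M. polymorpha*. LHCA3, LHCA1, PSBR and PSAD-2, further parts of the photosystems, were also among the 15 hits with the highest minimum percentile. So were the translation elongation factors eEF1A (AT1G07920) and eEF2 (AT1G56070), which feed aminoacyl-tRNA to the ribosome and move it along the message. The remaining members were Rubisco activase (RCA, AT2G39730), the Calvin cycle enzyme GAPA-2, methionine synthase (AT5G17920) and S-adenosylhomocysteine hydrolase (AT4G13940) of the methyl cycle, the peroxisomal catalase CAT2, and the vacuolar proton-pumping pyrophosphatase (AT1G15690). These positions describe read numbers, in which a long transcript counts for more than a short one.

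Rubisco activase varied more between species than within them. It had 5641 and 5750 CPM in *P. vittata*, 3760, 3588 and 3662 CPM in *E. hyemale*, 3974 and 4156 CPM in *S. moellendorffii*, 1225 and 1118 CPM in *P. patens* and 1437 and 1511 CPM in *M. polymorpha*. All 7 vascular libraries were above the 4 bryophyte libraries in CPM, whereas in rank the lowest library was at percentile 98.8. No test was made, because each species is 1 separately normalised table and 3 species against 2 could not give an exact two-sided p under 0.2.

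By mean CPM, the most abundant hit of each species, shared or not, was an antenna protein, a Rubisco small subunit or Rubisco activase. In *P. vittata* the first was LHCB1 (AT2G34420) with 7861 ± 1147 CPM (SD, n = 2), followed by Rubisco activase with 5695 ± 77.1 CPM and by the heat shock chaperone HSP101 with 2647 ± 256 CPM. In *E. hyemale* Rubisco activase came first with 3670 ± 86.3 CPM (SD, n = 3), just ahead of CESA1 (AT4G32410), a catalytic subunit of cellulose synthase in primary walls, with 3479 ± 60.1 CPM. In *S. moellendorffii* a Rubisco small subunit hit (AT5G38420) had 9170 ± 790 CPM and LHCB2.1 (AT2G05100) 9114 ± 1227 CPM (SD, n = 2), values that do not differ beyond their spread. LHCB2.1 led in *P. patens* by its mean of 10144 ± 120 CPM and CCR1 (AT4G39260), a glycine-rich RNA-binding protein of the circadian system, had 9752 ± 1218 CPM (SD, n = 2). The order of these 2 hits was reversed in replicate 3, with 10613 CPM for CCR1 and 10059 CPM for LHCB2.1. In *M. polymorpha* LHCB2.3 (AT3G27690) reached 13599 ± 1489 CPM and RBCS1A 8680 ± 872 CPM (SD, n = 2). The 100 most abundant hits took between 18.0 and 22.0% of the annotated CPM in every library.

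Over the 3249 shared hits, the order of levels was most alike within the bryophytes and within the ferns. Spearman correlations between replicates of a species were between 0.991 and 0.997, given as a description across hits that share library and reference. The mean correlation between species was highest between *P. patens* and *M. polymorpha* (0.656, range over library pairs 0.647 to 0.668) and next between *P. vittata* and *E. hyemale* (0.608, range 0.603 to 0.616). The other 8 species pairs lay lower, with a mean of 0.541, and *S. moellendorffii* was closer to *M. polymorpha* (0.572) than to *P. vittata* (0.531) or *E. hyemale* (0.526). The position of the fern pair depended on which hits entered. Among 1021 hits with exactly 1 feature in each reference-based table, the fern pair had 0.574 and the bryophyte pair 0.524, and the other 8 pairs averaged 0.471.

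**Figure D1:**
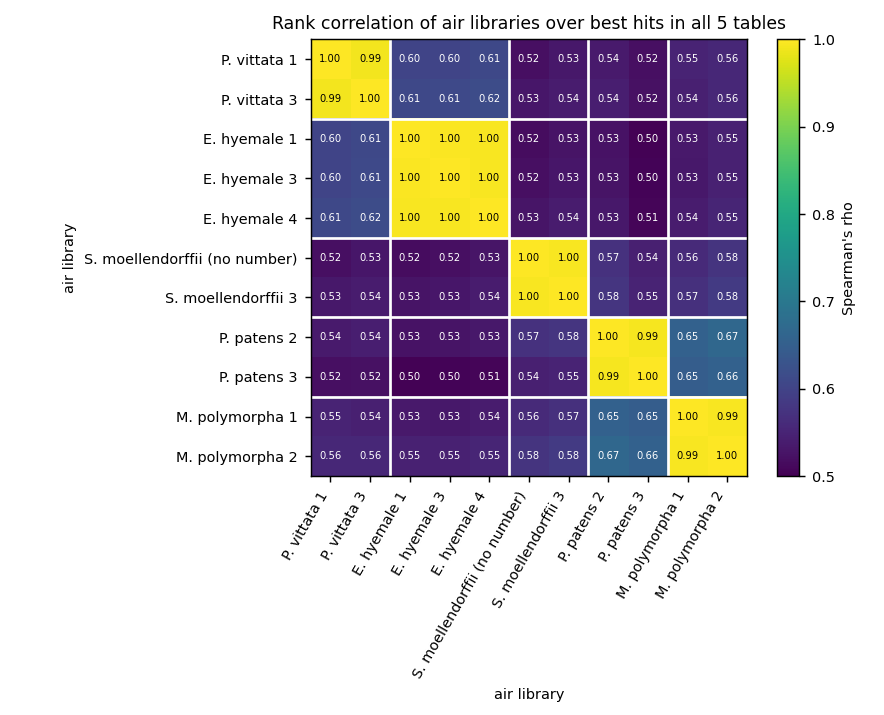
Spearman correlation of levels across 3249 shared best hits for each pair of the 11 air libraries, in colour and as numbers. Rows and columns are libraries by species, and the blocks of replicates stand near 0.99, with the bryophyte pair (mean 0.656) and the fern pair (mean 0.608) next.

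The most abundant hits kept their rank across species most closely, and hits of middle rank least. The range of the 5 species means of a hit had a median of 38.9 percentile points, with 124 hits within 10 points and 160 hits over 80 points. Among the 123 hits with a mean percentile between 90 and 100 the median range was 9.03 points, and 70 of them stayed within 10 points. The median range was 28.1 points between mean percentiles 75 and 90, 45.2 points between 50 and 75, 46.2 points between 25 and 50 and 27.4 points below 25. The bounds at 0 and 100 limit the range of the lowest and the highest hits. By comparison, the median SD between replicates was 1.39 points in *P. vittata*, 1.16 in *E. hyemale*, 0.936 in *S. moellendorffii*, 1.36 in *P. patens* and 1.15 in *M. polymorpha*.

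Ribosomal protein hits took a larger share of annotated CPM in the bryophytes than in the vascular species. The 271 hits of this list took 4.57 and 4.0% in *P. vittata*, 5.58, 5.60 and 5.33% in *E. hyemale*, 2.44 and 2.72% in *S. moellendorffii*, against 7.62 and 9.09% in *P. patens* and 7.06 and 6.27% in *M. polymorpha*. The photosystem and antenna hits (75 in any table) differed less, at 4.87 and 4.21% in *P. vittata*, 4.35, 4.20 and 4.38% in *E. hyemale*, 3.45 and 3.72% in *S. moellendorffii*, 4.13 and 4.07% in *P. patens* and 5.81 and 5.27% in *M. polymorpha*. Per annotated CPM the liverwort libraries were thus above all others and the *S. moellendorffii* libraries below all others. Per total CPM, which includes features without a hit, the liverwort was still highest, with 5.16 and 4.7%, but *S. moellendorffii* with 3.13 and 3.42% was no longer lowest, against 3.27 and 2.83% in *P. vittata* and 2.91, 2.81 and 2.94% in *E. hyemale*.

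Cell wall genes followed another order. Cellulose synthase hits carried 0.398 and 0.397% in *P. vittata* and 0.687, 0.682 and 0.694% in *E. hyemale*, against 0.315 and 0.245% in *S. moellendorffii*, 0.22 and 0.189% in *P. patens* and 0.16 and 0.169% in *M. polymorpha*. CESA1 alone accounted for much of this in *E. hyemale*, with 3492, 3413 and 3531 CPM, against at most 1210 CPM in any library of the other 4 species. The summed share of the list of phenylpropanoid and lignin enzymes was also highest in the ferns, with 0.703 and 0.731% in *P. vittata* and 0.778, 0.755 and 0.79% in *E. hyemale*. The other species had 0.472 and 0.437% in *S. moellendorffii*, 0.205 and 0.158% in *P. patens* and 0.478 and 0.499% in *M. polymorpha*, so the liverwort was at the level of the lycophyte and the moss was lowest. Cinnamate 4-hydroxylase (AT2G30490), an early enzyme of the pathway, had 1828 and 1794 CPM in *P. vittata*, 1588, 1546 and 1638 CPM in *E. hyemale*, 940 and 918 CPM in *S. moellendorffii*, 415 and 348 CPM in *P. patens* and 1136 and 1183 CPM in *M. polymorpha*. The list sums different hits in each table, 18 in *P. vittata*, 16 in *E. hyemale*, 12 in *S. moellendorffii* and 9 in each bryophyte, with 3 shared by all. Over these 3 the median percentile was lowest in *E. hyemale* (37.6, 36.1 and 34.0) and highest in *S. moellendorffii* (98.7 and 98.6), so the order of the sum is not that of the shared members. The later enzymes HCT and CCoAOMT1, which the list does not hold, had other orders.

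Chaperones of the heat shock families (137 hits) took 1.77 and 1.68% in *P. vittata* and 2.47, 2.50 and 2.44% in *E. hyemale*, against 1.09 and 1.30% in *S. moellendorffii*, 0.969 and 0.941% in *P. patens* and 1.02 and 1.05% in *M. polymorpha*. Per total CPM the order of the *E. hyemale* libraries above all others remained, with 1.65, 1.67 and 1.64% against at most 1.2%, but *P. vittata* with 1.19 and 1.13% was no longer above *S. moellendorffii*. Glycolysis was likewise above the rest in the ferns only per annotated CPM (1.79 to 1.87% against at most 1.52%). Per total CPM it lay at 1.20 to 1.25% in the ferns and reached 1.4% in *S. moellendorffii*. The cellulose synthase and phenylpropanoid lists kept the *E. hyemale* libraries highest on both scales.

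**Figure D2:**
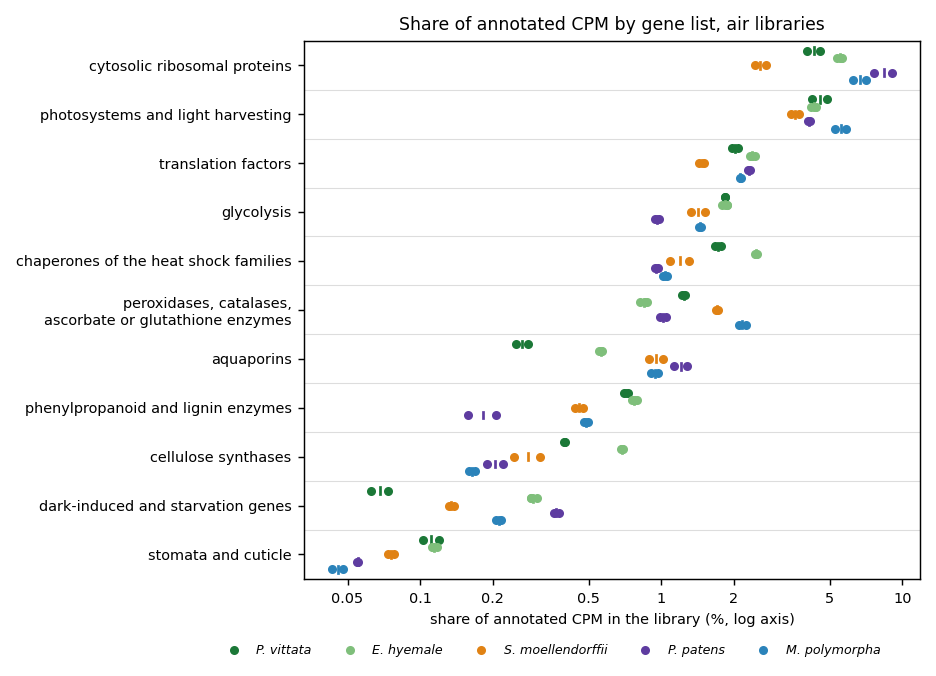
Share of annotated CPM (%, log axis) of 11 lists of best hits in the 11 air libraries. Points are libraries, short lines are species means and colours are species. Ribosomal protein hits are highest in *P. patens* and *M. polymorpha*, and cellulose synthase, phenylpropanoid and chaperone hits are highest in *E. hyemale*.

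Aquaporin hits took less in the ferns, at 0.279 and 0.25% in *P. vittata* and 0.568, 0.561 and 0.551% in *E. hyemale*, against 0.887 to 1.28% in the other 3 species. This list was matched by description and misses tonoplast members named only as integral proteins. Peroxidases, catalases and ascorbate or glutathione enzymes, which handle hydrogen peroxide, took 1.22 and 1.26% in *P. vittata*, 0.858, 0.871 and 0.82% in *E. hyemale*, 1.69 and 1.72% in *S. moellendorffii*, 0.985 and 1.05% in *P. patens* and 2.24 and 2.1% in *M. polymorpha*. A class III peroxidase hit (AT1G71695) was the third hit of the liverwort, with 4988 ± 613 CPM (SD, n = 2).

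Genes that darkness and sugar starvation induce in *Arabidopsis* had levels that differed between species by more than between replicates. The dormancy-associated hit DRM1 had 309 and 349 CPM in *P. vittata*, 1497, 1396 and 1326 CPM in *E. hyemale*, 710 and 699 CPM in *S. moellendorffii*, 1186 and 1518 CPM in *P. patens* and 200 and 195 CPM in *M. polymorpha*. The horsetail and the moss were thus high and the liverwort low. Glutamate dehydrogenase GDH1, which releases ammonium from glutamate, showed another order, with 64.6 and 84.2 CPM in *P. vittata* and 57.4, 52.9 and 56.0 CPM in *E. hyemale*, against 213 and 205 CPM in *S. moellendorffii*, 415 and 320 CPM in *P. patens* and 659 and 617 CPM in *M. polymorpha*. BCE2, of the complex that breaks down branched-chain keto acids, was highest in the moss, with 389 and 332 CPM, and between 33.3 and 111 CPM in the 9 libraries of the other 4 species. Since there are no light-grown samples here, these are levels in the dark and not responses to it. Sucrose was in the medium of *P. vittata*, *S. moellendorffii* and *M. polymorpha* and is not stated for *P. patens* or *E. hyemale*. Its part in these levels was not tested and cannot be told apart from species.

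The asparagine synthetase ASN1, a known marker of dark starvation, had a best hit in 3 tables only, with 71.1 and 74.6 CPM in *S. moellendorffii*, 67.9 and 68.0 CPM in *P. patens* and 406 and 495 CPM in *M. polymorpha*. The whole list of 11 such hits took 0.0627 and 0.0732% of annotated CPM in *P. vittata*, 0.305, 0.289 and 0.287% in *E. hyemale*, 0.138 and 0.131% in *S. moellendorffii*, 0.36 and 0.376% in *P. patens* and 0.206 and 0.217% in *M. polymorpha*. Only 3 of the 11 were shared by all 5 tables, so the sums are over different hits.

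Of 9 clock hits, PRR7 was the only one shared by all 5 tables. PRR7 is a pseudo-response regulator that represses morning genes of the *Arabidopsis* clock. It had 441 and 497 CPM in *P. vittata*, 282, 274 and 290 CPM in *E. hyemale*, 10.5 and 10.4 CPM in *S. moellendorffii*, 1009 and 1039 CPM in *P. patens* and 455 and 474 CPM in *M. polymorpha*. The evening component TOC1 had 28.6 and 33.5 CPM in *P. vittata*, 52.8, 43.0 and 48.0 CPM in *E. hyemale*, 133 and 119 CPM in *S. moellendorffii* and 237 and 254 CPM in *M. polymorpha*. GIGANTEA, an evening gene as well, was highest in *S. moellendorffii*, with 410 and 385 CPM. The moss table has neither a TOC1 nor a GIGANTEA hit. All plants were harvested at 1 time of day, so phase and level of these genes cannot be told apart.

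Among stomatal regulators, FAMA, which sets guard cell identity in *Arabidopsis*, had a hit in the vascular tables only, with 11.1 and 11.2 CPM in *P. vittata*, 50.1, 48.3 and 52.6 CPM in *E. hyemale* and 44.1 and 39.6 CPM in *S. moellendorffii*. SPCH, a hit with the same description as FAMA, was also in the moss table. It had 1.97 and 1.91 CPM in *P. patens* and 8.93 and 8.65 CPM in *S. moellendorffii*. The partner of FAMA, ICE1, had 90.7 and 92.3 CPM in *P. vittata*, 228, 236 and 241 CPM in *E. hyemale*, 2.77 and 3.22 CPM in *S. moellendorffii* and 47.3 and 48.6 CPM in *M. polymorpha*, whose gametophyte has air pores but no stomata. Its paralogue ICE2 had 136 and 152 CPM in *P. vittata*, 60.1, 63.1 and 56.0 CPM in *E. hyemale*, 90.4 and 82.2 CPM in *S. moellendorffii* and 153 and 137 CPM in *P. patens*, so that the low ICE1 hit of *S. moellendorffii* and the missing one of the moss stand beside a higher ICE2 hit. The cuticle lipid exporter ABCG11 was present in all 5, with 384 and 469 CPM in *P. vittata*, 244, 258 and 232 CPM in *E. hyemale*, 349 and 343 CPM in *S. moellendorffii*, 84.6 and 80.6 CPM in *P. patens* and 333 and 362 CPM in *M. polymorpha*. The moss libraries lay below all others.

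**Figure D3:**
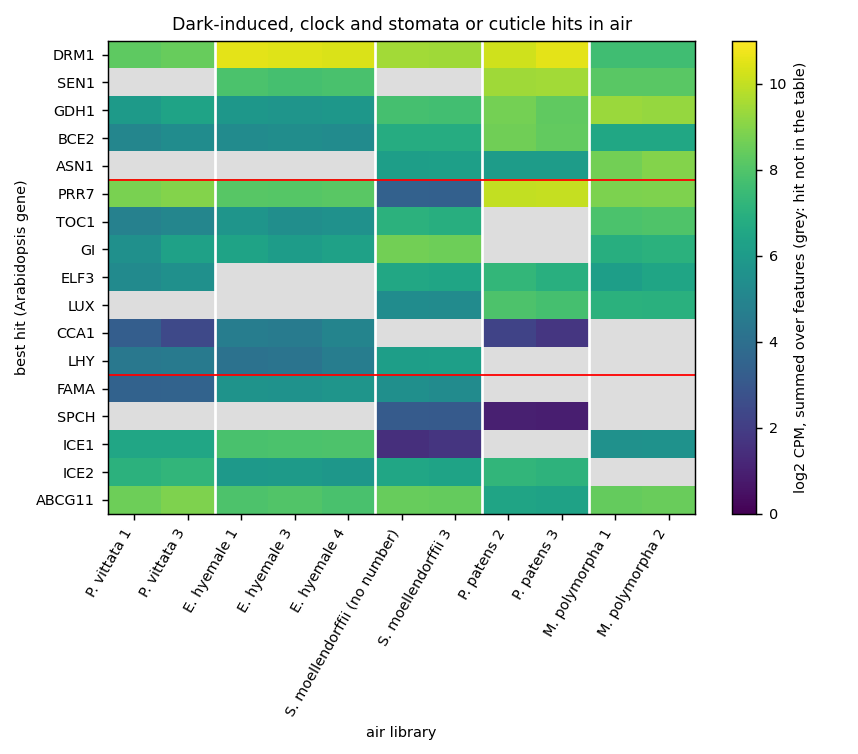
Level (log2 CPM, colour) of dark-induced, clock, and stomatal or cuticle hits in the 11 air libraries, with grey where a table has no such best hit. PRR7 is low in *S. moellendorffii* (10.4 and 10.5 CPM). A FAMA hit is in the tables of the 3 vascular species only, and an SPCH hit in those of *P. patens* and *S. moellendorffii*.

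Hits that stood apart in a single species were then counted. A hit was taken to stand apart where every library of the species lay above, or below, all libraries of the other 4 species by at least 20 percentile points. In *P. vittata* 79 hits stood above (2.43% of those compared) and 105 below (3.23%). In *E. hyemale* these were 80 (2.46%) and 111 (3.42%), in *S. moellendorffii* 96 (2.95%) and 130 (4%), in *P. patens* 99 (3.05%) and 80 (2.46%), and in *M. polymorpha* 71 (2.19%) and 65 (2%). Without a minimum gap, separation from the other 4 species was common, with 16.7% of hits above and 15.8% below in *P. vittata*, 18% and 15.2% in *E. hyemale*, 19.1% and 17.9% in *S. moellendorffii*, 15.4% and 17% in *P. patens*, and 15.2% and 16.7% in *M. polymorpha*. The hits next to the limit of 20 points had gaps of 20.01 to 20.42 points inside it and 19.3 to 19.99 points outside it.

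Most of these gaps of at least 20 points did not remain when hits were summed by family name. Of the 425 cases above, 133 (31.3%) still stood apart after the summing, and of the 491 cases below 132 (26.9%). Where the family held other hits, 27 of 288 and 36 of 326 cases did. The other 137 and 165 were the only hit of their family, so that only the set they were ranked in changed. Without a minimum gap, 276 of the 425 and 305 of the 491 were still separated in the same direction, and 0 stood apart in reverse. In a second step, chosen after the values were seen, 43 hits with a gap of 20 points or more were summed with close *Arabidopsis* paralogues from a written list. Of these, 30 no longer stood apart and 13 did. The 43 were picked by size and interest, so the counts are no estimate for all hits.

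Cases in which the sum removed the difference included some of the largest gaps. The β-tubulin hit TUB2, a subunit of microtubules, ranked at percentiles 2.6 and 4.0 in *M. polymorpha*, against 81.8 to 99.2 in the other 4 species. All β-tubulin hits together stood at 99.5 and 99.4 in *M. polymorpha*, against 99.0 to 99.8 in the others. OASB, a plastid enzyme of cysteine synthesis, was at 4.8 and 4.4 in *S. moellendorffii*, against 93.1 to 95.7, and at 96.2 and 96.8 with its paralogues. The vacuolar water channel TIP2;1 was at 35.0 and 30.6 in *S. moellendorffii* and at 99.9 in both libraries once its paralogues were added.

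Among hits low in *E. hyemale*, the cysteine protease RD21A stood at 0.2, 0.4 and 0.8, against 96.7 to 99.3 in the other species, and at 98.2, 98.4 and 98.4 with its paralogues. The ribosomal protein hit RPL8C showed the same, with 0.8, 0.5 and 0.5 alone and 96.6, 96.5 and 96.7 in sum. In *P. vittata* the chloroplast peroxiredoxin 2CPB moved to 97.6 and 96.8 in sum, against 4.0 and 9.8 alone. The plasma membrane water channel PIP2A separated the vascular species (0.0 to 4.9) from the bryophytes (99.5 to 99.8) alone, but all PIP hits together stood at 99.8 to 99.9 in the vascular species, against 99.8 to 100 in the bryophytes.

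In a few of these the sum left a smaller difference in the same direction. Cytosolic glyceraldehyde-3-phosphate dehydrogenase of glycolysis had 0.365, 0.283 and 0.188 CPM in *E. hyemale* for the hit GAPC2 alone. Together with GAPC1 and the plastid isoforms it had 305, 312 and 276 CPM in *E. hyemale*, against 355 to 1366 CPM in the other 4 species. The Rubisco small subunit, whose nuclear gene copies are nearly identical, had 251, 240 and 269 CPM over all its hits in *E. hyemale*. The other species had 1284 and 1081 CPM in *P. vittata*, 8663 and 9769 CPM in *S. moellendorffii*, 6986 and 7870 CPM in *P. patens* and 9731 and 8434 CPM in *M. polymorpha*. The 2 ferns, both on assembled transcriptomes, were thus the lowest, whereas Rubisco activase was high in them.

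**Figure D4:**
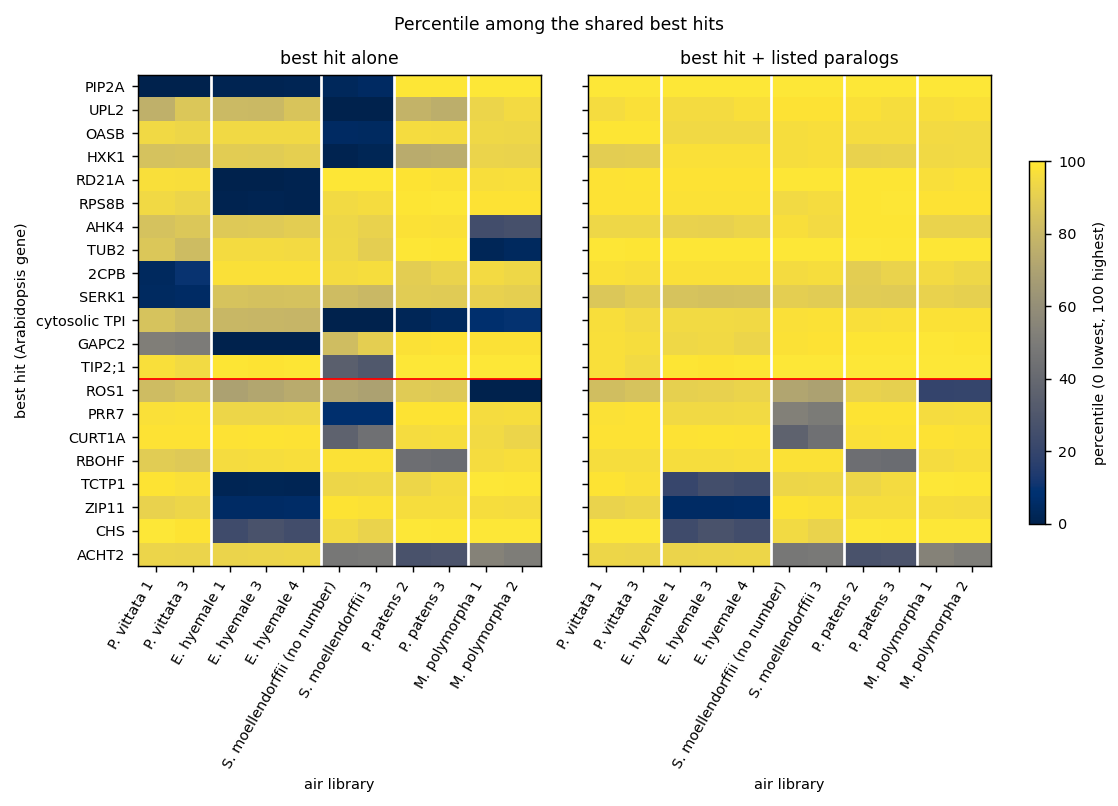
Percentile rank (0 to 100) in each air library of 21 best hits alone (left) and summed with listed *Arabidopsis* paralogues (right). The 13 hits above the red line no longer stood apart after the sum, as for TUB2 in *M. polymorpha* (2.6 and 4.0 alone, 99.5 and 99.4 in sum), and the 8 below it did.

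In *M. polymorpha*, ROS1 remained low after its paralogues were added. ROS1 is a DNA glycosylase that removes methylated cytosine. It had 1.28 and 0.947 CPM in *M. polymorpha*, against 85.0 to 210 CPM in the other 4 species. The sum of DEMETER-type hits gave 21.5 and 22.1 CPM in *M. polymorpha*, at percentiles 19.9 and 20.2, against 109 to 260 CPM in the others, at percentiles 69.2 to 92.2. SGS3, which protects RNA in the small RNA pathway, was high there, with 313 and 317 CPM in *M. polymorpha*, against 2.86 to 58.1 CPM elsewhere.

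In *P. patens*, the NADPH oxidase hit RBOHF, an enzyme that makes superoxide at the plasma membrane, had 37.3 and 35.4 CPM. The other species had 164 and 164 CPM in *P. vittata*, 404, 401 and 445 CPM in *E. hyemale*, 723 and 737 CPM in *S. moellendorffii* and 466 and 525 CPM in *M. polymorpha*. The sum of RBOH hits left the moss at percentiles 43.1 and 42.2, against 96.0 to 98.0 in the others. The vacuolar invertases, which split sucrose, had 91.7 and 76.1 CPM in *P. patens*, against 320 to 1265 CPM in the other 4. The caffeoyl-CoA methyltransferase hit CCoAOMT1 of lignin synthesis had 4.07 and 4.35 CPM in *P. patens*, against 81.2 to 792 CPM. The ubiquitin ligase KEG, a negative regulator of abscisic acid signals in *Arabidopsis*, had 21.0 and 20.8 CPM in *P. patens*, against 127 to 223 CPM, and KING1, a regulatory subunit of SNF1-related kinase, 24.2 and 22.6 CPM, against 140 to 426 CPM. In the other direction the moss stood high for the small GTPase hit TTN5 (AT2G18390), with 137 and 179 CPM in *P. patens*, against 6.31 to 14.2 CPM. It stood high as well for ETFA, an electron carrier of mitochondrial amino acid and lipid breakdown, with 196 and 200 CPM in *P. patens*, against 11.4 to 55.1 CPM.

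In *S. moellendorffii*, PRR7 summed with its listed paralogues PRR3, PRR5 and PRR9 had 63.2 and 59.9 CPM, against 321 to 1039 CPM in the other 4 species. TOC1, a further pseudo-response regulator, was not in this sum. It had 133 and 119 CPM in *S. moellendorffii* and between 28.6 and 254 CPM in the other species with such a hit. Whether the gap remains with TOC1 added was not tested. CURT1A, which bends the thylakoid membrane at the edges of grana, had 38.8 and 51.0 CPM in *S. moellendorffii*. The sum of CURT1 hits elsewhere was 653 and 561 CPM in *P. vittata*, 864, 866 and 835 CPM in *E. hyemale*, 709 and 773 CPM in *P. patens* and 841 and 717 CPM in *M. polymorpha*. High in *S. moellendorffii* was POLD2, the small subunit of DNA polymerase delta, with 243 and 229 CPM, against 5.42 to 17.7 CPM in the others. A carbon-nitrogen hydrolase hit (AT1G55090) had 812 and 936 CPM in *S. moellendorffii*, against 12.2 to 22.7 CPM. Both stood far outside the range of the other 9 libraries.

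In *E. hyemale*, chalcone synthase (CHS), the entry enzyme of flavonoid synthesis, had 18.9, 22.1 and 19.4 CPM. It had 1409 and 683 CPM in *P. vittata*, 405 and 321 CPM in *S. moellendorffii*, 2314 and 1901 CPM in *P. patens* and 2207 and 2393 CPM in *M. polymorpha*. The translationally controlled tumour protein TCTP1, a growth regulator, had 16.4, 20.2 and 18.1 CPM in *E. hyemale* with its paralogue, against 324 to 2000 CPM in the other 4. The zinc transporter hit ZIP11 had 5.37, 5.53 and 5.36 CPM in *E. hyemale*, against 198 to 909 CPM. RNR1, the large subunit of ribonucleotide reductase, was higher in *E. hyemale*, with 77.9, 76.3 and 75.4 CPM, against 13.1 to 19.6 CPM.

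In *P. vittata*, the copper chaperone of superoxide dismutase (CCS) had 5.35 and 4.61 CPM, against 83.1 to 1242 CPM in the other 4 species. Phytochrome B, a red light receptor, had 18.9 and 18.0 CPM in *P. vittata*, against 155 to 1302 CPM. With all phytochrome hits the values were 64.7 and 72.8 CPM in *P. vittata*, against 157 to 1307 CPM, a gap of 16.6 percentile points and so under the limit of 20. Features of *P. vittata* carry E-values up to 10, and 8864 of 32935 features with a hit had one over 1e-10, the bound that all *E. hyemale* hits meet.

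Between the vascular species and the bryophytes, 39 hits stood above (1.2% of those compared) and 45 below (1.39%) by at least 20 points. After summing by family name 7 and 8 of them did. Only 3 of the 7 and 1 of the 8 had other hits in their family, out of 30 and 33 such hits before summing. For the rest there was nothing to sum, so the step was no check of them. Among the 7 above were 2 aminoacyl-tRNA synthetases, which load tRNA for translation. The leucyl-tRNA synthetase hit (AT1G09620) ranked between 76.0 and 85.5 in the 7 vascular libraries, against 30.4 to 47.9 in the 4 bryophyte libraries. The glycyl-tRNA synthetase hit (AT1G29880) ranked between 91.4 and 94.9, against 35.8 to 69.0. cpSRP54 (AT5G03940), the chloroplast signal recognition particle subunit that delivers antenna proteins to thylakoids, had 79.4 and 87.4 CPM in *P. vittata*, 162, 170 and 167 CPM in *E. hyemale* and 128 and 139 CPM in *S. moellendorffii*, against 39.1 and 35.7 CPM in *P. patens* and 38.0 and 37.1 CPM in *M. polymorpha*. Callose synthase 5 (AT2G13680), of a family that deposits callose in cell walls, ranked between 89.8 and 95.2, against 36.4 to 69.5.

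Lower in the vascular species was the uridine kinase hit UKL1 (AT5G40870) of pyrimidine salvage, with 25.1 and 23.0 CPM in *P. vittata*, 38.0, 33.5 and 34.8 CPM in *E. hyemale* and 40.5 and 42.8 CPM in *S. moellendorffii*, against 272 and 272 CPM in *P. patens* and 190 and 173 CPM in *M. polymorpha*. These values are for the UKL1 hit alone. Its paralogues had hits in *P. patens* and *P. vittata* (UKL2), *E. hyemale* (UKL3) and *S. moellendorffii* (UKL5). Their family name differs, so the sum by family name did not join them to UKL1. ETHE1 (AT1G53580), a sulphur dioxygenase of mitochondria, had 12.8 to 51.4 CPM in the vascular libraries, against 182 to 259 CPM in the bryophyte libraries. The vascular and the bryophyte libraries did not overlap for these hits, as was so for 11.8% of all shared hits in the direction above and 9.66% in the direction below, at any gap. All 3 vascular species were sporophytes and both bryophytes gametophytes.

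Between the ferns and the other 3 species, 60 hits stood above (1.85%) and 51 below (1.57%), and 17 and 11 did after summing by family name. Only 3 of the 17 and 2 of the 11 had other hits in their family, out of 37 and 38 such hits before summing. At any gap, the ferns did not overlap the other 3 species for 12% of hits above and 9.7% below. The catalytic subunit of DNA polymerase epsilon (POL2A, AT1G08260) had 256 and 369 CPM in *P. vittata* and 203, 189 and 227 CPM in *E. hyemale*, against 44.4 and 46.8 CPM in *S. moellendorffii*, 22.3 and 16.9 CPM in *P. patens* and 9.77 and 10.9 CPM in *M. polymorpha*. PECT1 (AT2G38670), which makes the activated head group for phosphatidylethanolamine, had 219 to 426 CPM in the ferns, against 48.8 to 64.6 CPM in the others. The chloroplast thioredoxin ACHT2 had 219 to 280 CPM in the ferns, against 22.8 to 58.9 CPM. The plastid dicarboxylate transporter DiT2.1, which exports glutamate during photorespiratory nitrogen recycling, had 171 to 401 CPM, against 57.5 to 82.0 CPM. The list of photosystem and antenna hits had 0 of 25 shared members above in the ferns, and that of the Calvin cycle 0 of 6. At the share of 1.85% over all shared hits, lists of this size may well hold none. The polyribonucleotide nucleotidyltransferase hit PNP (AT3G03710), an RNase, ranked between 74.8 and 90 in the ferns, against 15.4 to 41.4 in the other 3 species.

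HCT (AT5G48930), an acyltransferase of lignin precursor synthesis, was lower in the ferns, with 62.8 and 47.4 CPM in *P. vittata* and 42.7, 40.3 and 41.0 CPM in *E. hyemale*, against 1969 and 1989 CPM in *S. moellendorffii*, 243 and 230 CPM in *P. patens* and 1137 and 1224 CPM in *M. polymorpha*. The hit gathers 8 features in *P. vittata*, 2 in *E. hyemale*, 39 in *S. moellendorffii*, 12 in *P. patens* and 17 in *M. polymorpha*. The number of features behind a hit differed in general, with a median of 3 in *P. vittata*, 2 in *E. hyemale*, 1 in *S. moellendorffii*, 2 in *P. patens* and 1 in *M. polymorpha*. Across hits it went with the percentile rank, at a Spearman correlation of 0.47 in *P. vittata*, 0.49 in *E. hyemale*, 0.34 in *S. moellendorffii*, 0.62 in *P. patens* and 0.31 in *M. polymorpha*. Its part in the differences was not tested.

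**Figure D5:**
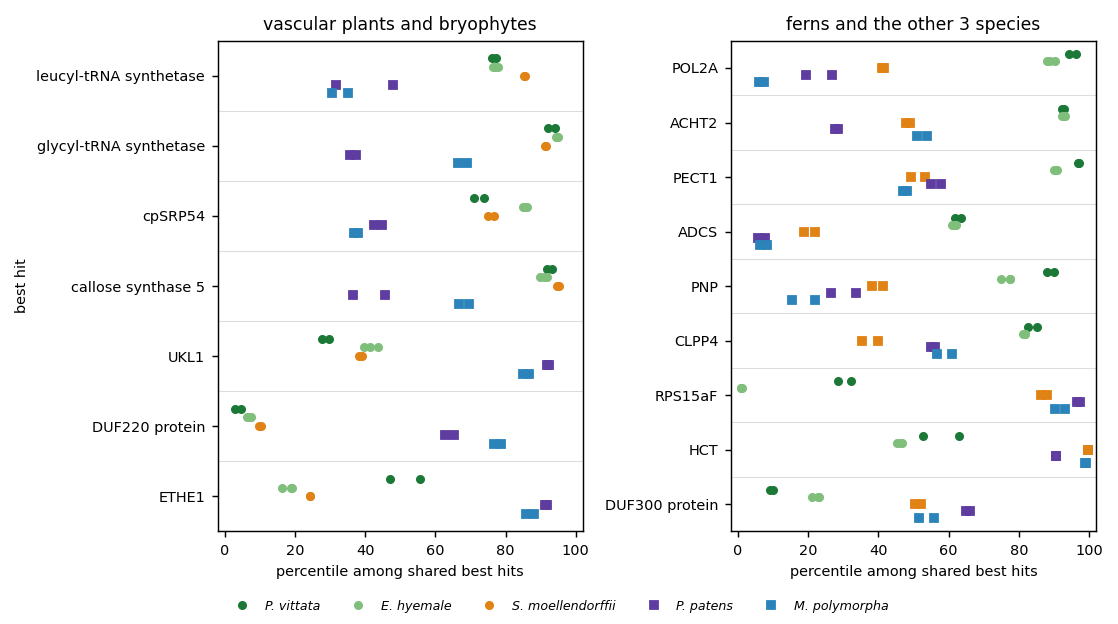
Percentile rank (0 to 100) in each air library of hits that stood apart between clades. Left, the 7 vascular libraries (circles) against the 4 bryophyte libraries (squares). Right, the 5 fern libraries (circles) against the 6 libraries of the other 3 species (squares), where POL2A lies at 88.0 to 96.4 in the ferns, against 5.9 to 41.6.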

How the data were processed

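The authors trimmed the reads of poly-A libraries, quantified them with kallisto, dropped loci without a sample over 20 reads and normalised each species with TMM in edgeR (versions not given in the sources used here). Transcriptomes of *E. hyemale* and *P. vittata* were assembled with Trinity (k-mer 31). The deposited values used are log2 CPM, here turned back to CPM. The deposited log2 fold changes and adjusted p-values of hypoxia against air, and other deposited text columns, were not used. The number of columns of no sample was 0. Rows of the *E. hyemale* values were put in order by sorting the identifiers (correlation with the average column 0.0075 before and 0.9939 after).

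CPM was summed by best hit, with the transcript suffix removed, and ranked over 3249 shared hits with Python 3.11.15, pandas 2.3.3, numpy 2.4.6 and scipy 1.17.1. As tables were normalised separately, no test was run. Members and lists were chosen with earlier results of these data known. Named were the 15 hits with the highest minimum percentile, the hits with the largest gaps per species (4 each way) and per clade (6 or 4 each way), the 5 most abundant hits per species, extreme members of 24 lists, and shared shoot, dark and clock members. Further hits, apart alone and by family name or for their known role, were chosen after their values were seen. Whether replicates came from separate cultures is not given, so their spread may be technical.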

Additional observations from a re-analysis of the deposited data

How the results depend on the processing

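No paired analysis was possible because no test was made and replicate numbers shared between species mark no common batch. In the main analysis 39 hits stood above and 45 below in vascular species against bryophytes, 60 and 51 in ferns against the other 3 species, and 425 and 491 in single species. With a gap of 10 points these counts were 144, 118, 147, 125, 1075 and 1067, and with 30 points 5, 19, 27, 27, 160 and 236. On log2(rescaled CPM + 1) with a gap of 2 they were 4, 8, 12, 12, 92 and 233, with a pseudocount of 0.1 they were 4, 10, 12, 14, 94 and 241, and with 5 they were 4, 8, 10, 10, 89 and 189. Grouping by description gave 22, 28 and 38 for the first 3 and 271 and 325 for the last 2, and grouping by family name, added after seeing the data, gave 23, 22, 30, 212 and 265. Ranks over all hits of each table gave 26 below in vascular species. The mean correlations of the bryophyte pair, the fern pair and the other 8 pairs (0.656, 0.608 and 0.541) were 0.618, 0.559 and 0.512 with the highest feature per hit, 0.735, 0.683 and 0.633 by description and 0.764, 0.752 and 0.677 by family name. Among the 18 hits with 1 feature in every table they were 0.421, 0.346 and 0.375, the 6 counts were 0, 0, 1, 1, 3 and 2, and 0 hits were high in all 5 species. Among the 1021 hits with 1 feature in each reference-based table, also added later, the counts were 11, 20, 21, 11, 161 and 141, with 5 hits high in all 5 and correlations of 0.524, 0.574 and 0.471. The cause was not tested, but both last settings rank fewer hits. The counts stayed within 1.5 times when hits under 5 CPM or *P. vittata* hits over an E-value of 1e-10 were left out. Leaving out each library in turn gave 39 to 44, 46 to 49, 60 to 64, 51 to 58, 433 to 461 and 496 to 520, 22 to 23 hits high in all 5, and correlations of 0.651 to 0.662, 0.605 to 0.611 and 0.537 to 0.545. The bryophyte pair was above the fern pair in every setting but the 1021 hits, and the fern pair above the other pairs in every setting but the 18 hits. Hits above were fewer than hits below in vascular species against bryophytes (39 and 45), and more with a gap of 10 points (144 and 118), by family name (23 and 22) and with ranks over all hits (39 and 26). Depth sets the precision of low hits, and the lowest estimate of depth was 16.2 M reads.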

Other observations

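Hits encoded in the chloroplast genome of *Arabidopsis* took a small share of annotated CPM in these poly-A libraries, and the share differed between species. It was 0.696 and 0.712% in *P. vittata*, 0.221, 0.228 and 0.193% in *E. hyemale*, 0.0547 and 0.0542% in *S. moellendorffii*, 0.0224 and 0.0334% in *P. patens* and 0.0229 and 0.0315% in *M. polymorpha*. The sums cover 39 such hits in *P. vittata*, 27 in *E. hyemale*, 43 in *S. moellendorffii*, 10 in *P. patens* and 18 in *M. polymorpha*. Both ferns were quantified on assembled transcriptomes, so species and the organelle transcripts held by each reference cannot be told apart. The photosystem I core protein PSAB (ATCG00340) had 1620 and 1783 CPM in *P. vittata*, 92.0, 71.2 and 56.2 CPM in *E. hyemale*, 7.94 and 5.64 CPM in *S. moellendorffii*, 120 and 207 CPM in *P. patens* and 4.09 and 3.95 CPM in *M. polymorpha*. Mitochondrially encoded hits took 0.0765 and 0.0744% in *P. vittata*, against at most 0.0141% in any library of the other 4 species. Here the sums cover 21 hits in *P. vittata*, 18 in *E. hyemale*, 13 in *S. moellendorffii*, 7 in *P. patens* and 7 in *M. polymorpha*, with the same limit.

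Lipoxygenase hits, which start oxylipin synthesis, had 2994 and 2584 CPM in *S. moellendorffii* over LOX1 and its listed paralogues, and between 116 and 813 CPM in the other 9 libraries. Fermentation hits took 0.181 and 0.171% of annotated CPM in *P. vittata*, 0.18, 0.18 and 0.167% in *E. hyemale*, 0.158 and 0.289% in *S. moellendorffii*, 0.107 and 0.111% in *P. patens* and 0.189 and 0.183% in *M. polymorpha* in air. The 2 *S. moellendorffii* libraries thus spanned a wider range than those of the other species, and the one without a usable number had the lower value.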
